A study of Homo sapiens with 8 samples.

Results

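The regions described here are the CUT&RUN peaks that lie outside the assembled chromosomes: every row of the 8 deposited peak lists whose contig is not chromosome 1 to 22, X or Y. They were taken by contig name alone. There were 7420 of them among 263613 peaks, on 269 contigs of the hg38 assembly.

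CUT&RUN uses an antibody to bring a nuclease to a protein on chromatin and sequences the DNA that is cut free. The cells were HCT-116, an established human colorectal carcinoma line. Wild type actin with a Flag tag was profiled in control cells (genotype label SETD3 CT, 1 library) and in cells without SETD3, the histidine methyltransferase of actin (genotype label SETD3 KO, 2 libraries, KO1 and KO2). BRG1, the SWI/SNF remodelling ATPase encoded by SMARCA4, was profiled in the same design, again with 1 control library and 2 KO libraries. For each antibody, control cells also gave 1 library with IgG. The title of the IgG library in the Flag arm also holds the word Empty, and it is called Flag_Empty IgG here. The title of the other IgG library names no arm, and its place beside BRG1 comes only from the name of the deposited list. Whether KO1 and KO2 are clones or cultures is not stated, nor is whether the IgG cells carried the Flag-actin construct. Each control and IgG group had 1 library, and no test between conditions was run. Differences are given as values, with the SD between KO1 and KO2 (n = 2) or with exact binomial (Clopper-Pearson) 95% intervals, which cover counting error only.

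The hg38 assembly holds more sequence than its 24 main chromosomes. An alternate contig carries a second version of a locus that differs strongly between people, such as the major histocompatibility complex (MHC) on chromosome 6, so most of it has a close copy on the chromosome. An unlocalized contig (name ending in random) belongs to a known chromosome but has no known position there, and an unplaced contig (name starting with chrUn) has no known chromosome. Both kinds are rich in repeats and segmental duplications, where a short read can match several places, and such places collect reads in many chromatin assays with or without a specific antibody. No contig sequence is printed, because no genome sequence was used here.

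The Flag-actin lists held 40019 peaks (control), 28139 (KO1) and 36982 (KO2), and the Flag_Empty IgG list 21158. In the BRG1 arm they held 54419 in the control, 24418 and 32841 in KO1 and KO2, and 25637 in IgG. The number of reads per library is not known from these files. The maximum signals of a list were whole multiples of 1 step (100% of the values below 200 steps, within 0.05 of a step), and that step ranged from 4.38 in the BRG1 control to 21.5 in the Flag-actin control. The lists have the layout of SEACR, a peak caller that with a numeric threshold keeps a top fraction of signal blocks. The names of the lists give 0.01 for the antibody libraries and 0.005 for IgG, so a peak count is not a measure of binding.

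No list held a row on the mitochondrial genome: the count on chrM was 0 in all 8. The RefSeq table places 37 genes there, 13 of them protein-coding, 2 for ribosomal RNA and 22 for transfer RNA, and none could be described. Whether mitochondrial reads were removed before peaks were called was not stated. Rows on fix patches also numbered 0. All 7420 peaks therefore lay on alternate contigs (209 contigs), unlocalized contigs (36) and unplaced contigs (24).

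Peaks outside the chromosomes made up a larger share of the IgG lists, which were called at another threshold, than of any antibody list as deposited. They were 855 of the peaks in Flag_Empty IgG, 4.04% (interval 3.78 to 4.32), and 882 in IgG, 3.44% (3.22 to 3.67). The Flag-actin control had 1117 such peaks, 2.79% (2.63 to 2.96). Flag-actin KO1 had 890, 3.16% (2.96 to 3.37), and KO2 had 1090, 2.95% (2.78 to 3.12). The lowest share of the 8 was that of the BRG1 control, with 1149 peaks or 2.11% (1.99 to 2.24). BRG1 KO1 had 634, 2.60% (2.40 to 2.80), and BRG1 KO2 had 803, 2.45% (2.28 to 2.62). Both KO lists were above their control for each antibody, with KO means of 3.06 ± 0.152% (SD, n = 2) for Flag-actin and 2.52 ± 0.107% (SD, n = 2) for BRG1. For Flag-actin the intervals of the control and KO2 overlapped, as did those of Flag-actin KO1 and IgG.

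By signal the order of control and KO turned, while the place of IgG differed between the arms. The contigs outside the chromosomes held 3.54% of the summed total signal of the Flag-actin control list, against 2.68% and 2.97% in KO1 and KO2. In the BRG1 arm they held 2.63% in the control list and 2.31% and 2.33% in the KO lists. Flag_Empty IgG, at 2.94%, lay between the Flag-actin KO lists, and IgG, at 2.72%, was the highest of the BRG1 arm. The share by peak number also turned when every list was cut to its strongest peaks, up to the length of the shortest list: the KO mean minus the control was then -0.0780 percentage points for Flag-actin and -0.234 for BRG1. In lists of that length IgG had 3.54%, below the 3.78%, 3.66% and 3.75% of the Flag-actin control, KO1 and KO2, so IgG no longer ranked above every antibody list. It stayed above the lists of its own arm, at 3.05%, 2.81% and 2.82% in the BRG1 control, KO1 and KO2. Flag_Empty IgG, the shortest list, kept its 4.04%, above the Flag-actin lists. Peaks on these contigs covered 260 kb in the Flag-actin control list, against 76.6 and 134 kb in KO1 and KO2. The BRG1 control covered 172 kb, against 42.0 and 59.5 kb.

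**Figure D1:**
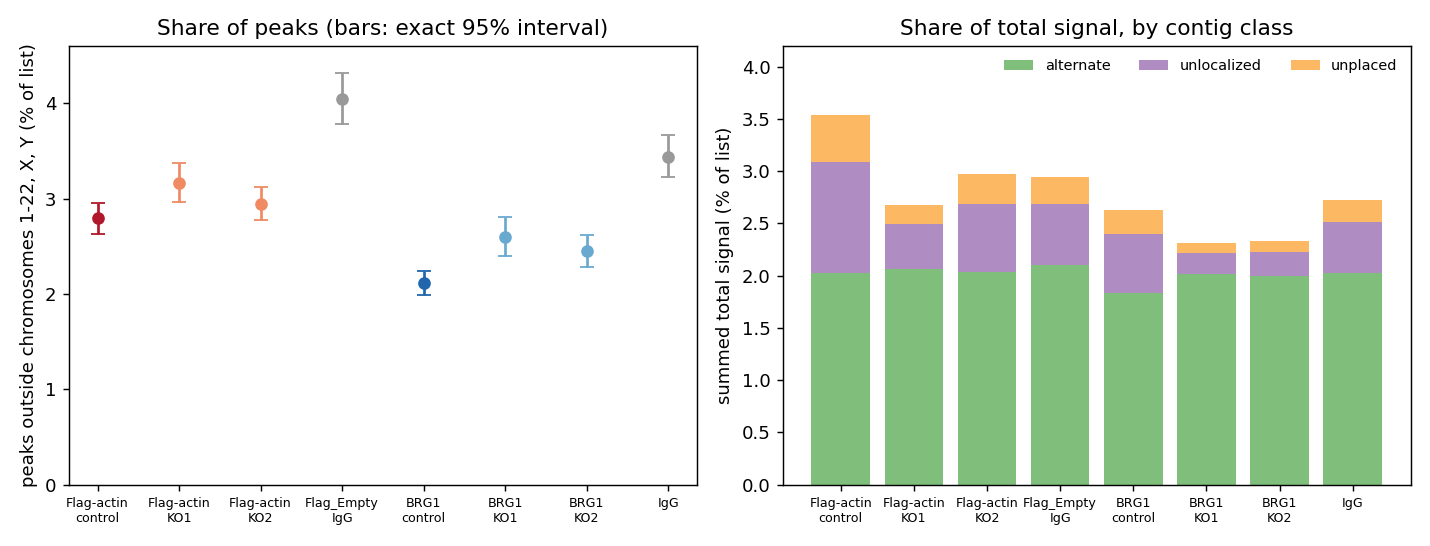
Left, the percentage of each list's peaks that lay outside chromosomes 1 to 22, X and Y, with exact 95% binomial intervals. Right, the percentage of each list's summed total signal on those contigs, stacked by contig class; both controls exceed their KO lists in signal although they lie below them in peak number.

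Peaks outside the chromosomes ranked above the middle of their lists. Their median percentile by total signal was 69.7 (control), 65.3 (KO1) and 67.5 (KO2) for Flag-actin, and 67.2 (control), 63.6 (KO1) and 62.7 (KO2) for BRG1. It was lower in the IgG lists, at 55.7 and 56.9. Median peak width was 200 bp in the Flag-actin control, 50 bp and 100 bp in its KO lists, 100 bp in the BRG1 control and 40 bp in both BRG1 KO lists. These widths followed those of the chromosomal peaks, whose medians were 220, 50, 90, 140, 40 and 40 bp in the same order. Contig classes differed in width: peaks on unlocalized contigs had medians from 110 bp (BRG1 KO2) to 250 bp (Flag-actin control), whereas those on alternate contigs had medians from 30 bp (BRG1 KO1) to 120 bp (Flag-actin control).

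Alternate contigs carried most of the peaks and a nearly level share of the signal. Their peaks numbered 712, 581 and 695 in the Flag-actin control, KO1 and KO2, 547 in Flag_Empty IgG, 779, 458 and 575 in the BRG1 control, KO1 and KO2, and 594 in IgG. They held between 1.83% (BRG1 control) and 2.10% (Flag_Empty IgG) of the summed signal in every list. Unlocalized contigs varied much more. They held 1.06% of the signal in the Flag-actin control, 0.43% and 0.65% in its KO lists and 0.58% in Flag_Empty IgG. In the BRG1 arm they held 0.56% in the control, 0.20% and 0.22% in the KO lists and 0.49% in IgG. Unplaced contigs followed the same order, with 0.45%, 0.19%, 0.28% and 0.25% in the Flag arm and 0.23%, 0.09%, 0.11% and 0.21% in the BRG1 arm. For both classes the control of each antibody was the highest of its arm. The BRG1 KO lists were also below their IgG list.

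The peaks were concentrated on few contigs. A contig held a median of 13 peaks over the 8 lists, and the 10 contigs with the most held 2610 peaks, 35.2% of all. There were 147 contigs present in all 8 lists and 21 present in a single list. The densest were the unlocalized contigs chr17_KI270730v1_random, with 767 peaks, and chr17_KI270729v1_random, with 447. Chromosome 17 contigs held 1240 of the unlocalized peaks, 64.5% of that class. Among alternate contigs, 15 from chromosome 6 held 1126 peaks, 22.8% of the class, and 16 from chromosome 17 held 541, 10.9%.

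On chr17_KI270730v1_random the Flag-actin control had 88 peaks, KO1 had 106, KO2 had 112 and Flag_Empty IgG had 112. The BRG1 control had 98, KO1 had 67, KO2 had 84 and IgG had 100. The number of peaks thus rose from control to both KO lists for Flag-actin and fell for BRG1. Signal went down in both arms: the contig held 0.578% of the summed signal in the Flag-actin control, 0.246% and 0.375% in its KO lists and 0.345% in Flag_Empty IgG, and 0.323%, 0.0955%, 0.114% and 0.287% in the BRG1 control, KO1, KO2 and IgG. These peaks are packed closely. Neighbouring peaks on this contig were a median of 190 bp (control), 200 bp (KO1) and 170 bp (KO2) apart for Flag-actin. For BRG1 the gaps were 150 bp (control), 455 bp (KO1) and 360 bp (KO2). On the chromosomes the shortest median gap of any list was 24925 bp.

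chr17_KI270729v1_random had 55, 70 and 61 peaks in the Flag-actin control, KO1 and KO2 and 65 in Flag_Empty IgG. It had 65, 34 and 38 in the BRG1 control, KO1 and KO2 and 59 in IgG. Its signal was 0.263%, 0.103%, 0.158% and 0.146% of the list in the Flag arm and 0.137%, 0.0395%, 0.0421% and 0.121% in the BRG1 arm. This is the same order as on chr17_KI270730v1_random, with each control highest and both BRG1 KO lists below IgG.

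**Figure D2:**
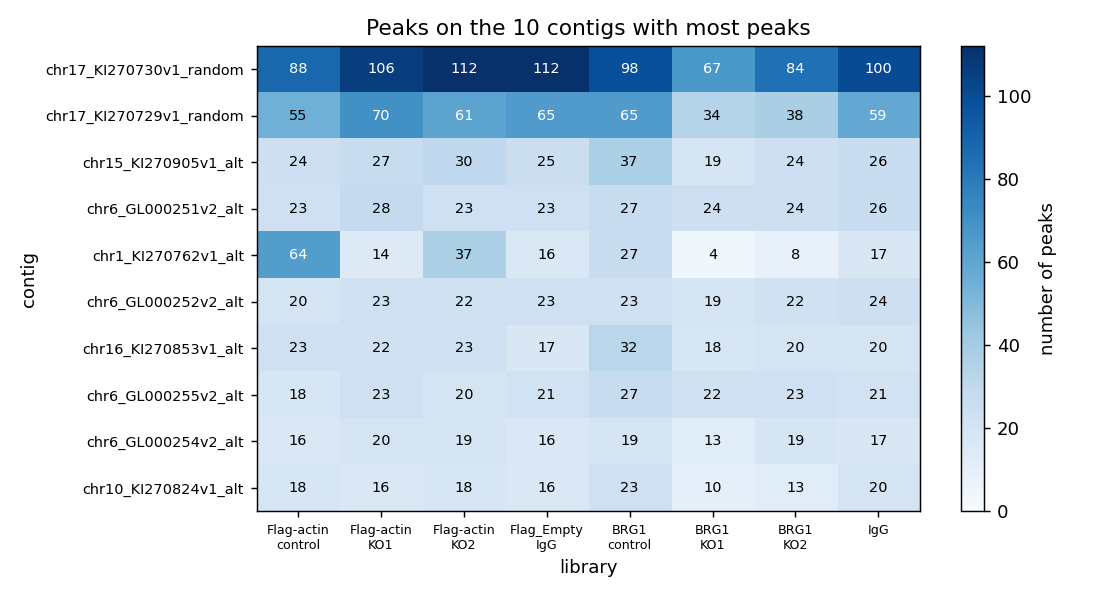
Number of peaks on the 10 contigs with the most peaks (rows) in each of the 8 lists (columns), with the count printed in each cell. The pair of chromosome 17 unlocalized contigs lead in every list, except that chr1_KI270762v1_alt has 64 peaks in the Flag-actin control.

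The alternate contig chr1_KI270762v1_alt stood out by its dense peaks in the Flag-actin control. That list had 64 peaks on it, against 14 in KO1, 37 in KO2 and 16 in Flag_Empty IgG. In the BRG1 arm it had 27 in the control, 4 in KO1, 8 in KO2 and 17 in IgG. The contig held 0.122% of the summed signal of the Flag-actin control, whereas the other 7 lists lay between 0.0340% and 0.0486%. Of the regions in the Flag-actin control, absent from both Flag-actin KO lists and from both IgG lists, the 5 with the highest total signal all lay here. The strongest spanned chr1_KI270762v1_alt 239311 to 240810 and was also in the BRG1 control list, at a relative level of 0.153 (as defined below). The others spanned 320651 to 321560, 236071 to 237140, 257921 to 258490 and 205141 to 205890, and each was in 1 list only. All 5 were wide, and their maxima were only 11 to 22 steps. No RefSeq entry used here names this contig, so the genes at these positions are not given.

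The 7 alternate MHC haplotypes of chromosome 6 carry versions of the antigen-presentation genes. They held 110, 138 and 126 peaks in the Flag-actin control, KO1 and KO2 and 128 in Flag_Empty IgG. They held 152, 112 and 132 in the BRG1 control, KO1 and KO2 and 135 in IgG. Their signal was lowest in each control, at 0.247% of the Flag-actin control list against 0.374% and 0.337% in its KO lists, and 0.317% of the BRG1 control list against 0.418% and 0.394%. This direction is the reverse of that on the unlocalized contigs. The IgG lists had 0.386% and 0.380%, above each control. A set of 8 alternate contigs of the leukocyte receptor complex on chromosome 19, which hold killer cell receptor genes, was picked by name. It had between 15 (Flag-actin control) and 34 peaks (BRG1 control). In all, 19 alternate contigs of chromosome 19 had peaks, so the set may not hold every contig of that complex. The alternate 17q21.31 haplotype, chr17_GL000258v2_alt, had 13, 13, 14 and 12 peaks in the Flag arm and 21, 11, 13 and 11 in the BRG1 arm.

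Ribosomal DNA contigs had almost no peaks. chrUn_GL000220v1 and chr22_KI270733v1_random, which carry copies of the 45S ribosomal RNA gene, together had 0 peaks in the Flag-actin control, 1 in KO1, 2 in KO2 and 0 in Flag_Empty IgG. They had 4 in the BRG1 control, 1 in BRG1 KO1, 4 in BRG1 KO2 and 0 in IgG. One region, chr22_KI270733v1_random 24231 to 24860, was in all 3 BRG1 lists and in none of the other 5. It stood at percentile 49.9 of the BRG1 control list, 32.1 of KO1 and 11.1 of KO2, so it was not a strong peak in any of them. The RefSeq table does not name the contig of the ribosomal genes. It gives RNA45SN4 at 122273 to 135645 and RNA45SN5 at 105424 to 118780. The last peaks ended at 25270 on chr22_KI270733v1_random and at 96350 on chrUn_GL000220v1. On either contig no listed peak thus lay at those positions.

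Contigs with peaks of an antibody in one genotype only had few peaks. For Flag-actin, 12 of the 209 contigs of the control list had no peak in either KO list, with at most 3 control peaks on any of them. For BRG1 there were 41 such contigs of 232, with at most 4 control peaks. In the other direction, 21 contigs had peaks in both Flag-actin KO lists and none in the control. For BRG1 there were 2, chr11_GL383547v1_alt and chr17_KI270860v1_alt, with 1 peak in each KO list. The control lists were also longer than the KO lists, and the part of list length in these counts was not tested.

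Antibody peaks outside the chromosomes overlapped the IgG list of their arm far more often than chromosomal peaks did (overlap of at least 1 bp). In the Flag-actin control 596 of 1117 overlapped Flag_Empty IgG, 53.4% (50.4 to 56.3), against 33.3% of all peaks of that list. In Flag-actin KO1 695 of 890 did, 78.1% (75.2 to 80.8), against 51.4% of all. In Flag-actin KO2 690 of 1090 did, 63.3% (60.4 to 66.2), against 39.9%. BRG1 gave the same picture, with 732 of 1149 overlapping IgG in the control, 63.7% (60.9 to 66.5), against 35.5%. In BRG1 KO1 it was 581 of 634, 91.6% (89.2 to 93.7), against 71.1%, and in BRG1 KO2 664 of 803, 82.7% (79.9 to 85.2), against 59.3%. In every antibody list the members exceeded the background by at least the width of their interval. The KO lists overlapped IgG more than their controls, by 17.3 percentage points for Flag-actin and 23.5 for BRG1, with SDs of 10.5 and 6.33 between KO1 and KO2. Chromosomal peaks rose likewise, by 12.1 and 29.7 points, so the rise was not larger outside the chromosomes in both arms.

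The excess was larger among the wider peaks. Among peaks over 50 bp outside the chromosomes, 42.0%, 66.1% and 49.3% overlapped Flag_Empty IgG in the Flag-actin control, KO1 and KO2. For all peaks over 50 bp of those lists the shares were 19.0%, 18.2% and 16.6%. In the BRG1 arm the shares over 50 bp were 48.1%, 86.4% and 74.4% outside the chromosomes, against 15.2%, 23.6% and 18.6% of all peaks of that width. Among peaks of at most 50 bp the shares outside and on the chromosomes were closer, at 90.8% and 90.2% in the Flag-actin control and 94.3% and 92.4% in BRG1 KO1. They were 88.9% and 82.1% in Flag-actin KO1, and differed most in Flag-actin KO2, at 84.4% and 73.6%. Against Flag_Empty IgG in place of IgG, the narrow BRG1 peaks differed too: 84.6% and 67.0% in the control, 82.4% and 61.7% in KO1, and 76.8% and 58.1% in KO2. For the wide BRG1 peaks that list gave 47.6%, 84.5% and 74.7% outside the chromosomes and 12.5%, 19.1% and 15.2% on them. The IgG lists also shared more with each other on these contigs: 702 of 855 Flag_Empty IgG peaks (82.1%) and 690 of 882 IgG peaks (78.2%) overlapped the other list. On the chromosomes 69.5% and 57.0% did.

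**Figure D3:**
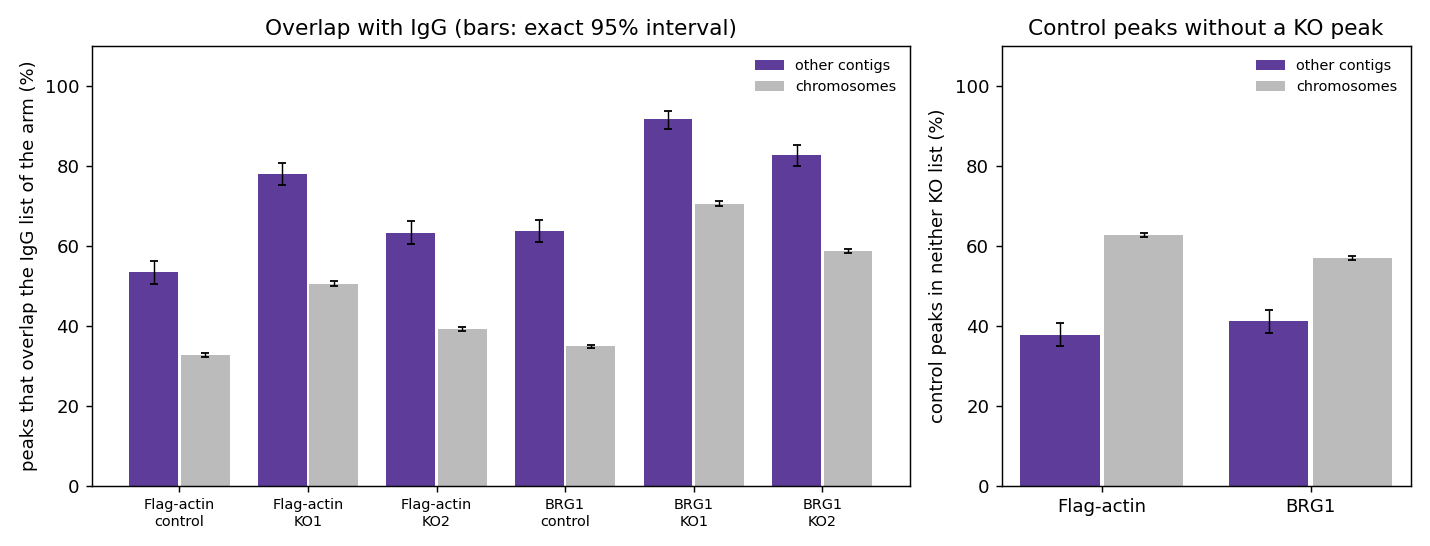
Left, the percentage of peaks of each antibody list that overlap the IgG list of the arm, outside the chromosomes (purple) and on them (grey). Right, the percentage of control peaks with no overlapping peak in either KO list; bars show exact 95% binomial intervals, and the purple bars are higher on the left and lower on the right for each library.

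Control peaks outside the chromosomes were found again in the KO lists more often than others. For Flag-actin, 422 of the 1117 control peaks overlapped no peak of either KO list, 37.8% (34.9 to 40.7), against 61.9% of all control peaks. For BRG1, 473 of 1149 did, 41.2% (38.3 to 44.1), against 56.7%. By class, 38.1% of alternate, 31.1% of unlocalized and 53.6% of unplaced Flag-actin control peaks were without a KO peak. For BRG1 the shares were 38.8%, 42.7% and 57.3%. Peaks kept in both KO lists ranked far above those without a KO peak, at a median percentile of 84.1 against 43.0 for Flag-actin and 87.0 against 40.2 for BRG1. They were also narrower, at a median of 60 bp against 280 bp and of 50 bp against 180 bp. For BRG1 only alternate contigs showed this, at 40 bp against 170 bp. Its medians were 190 against 180 bp on unlocalized contigs and 250 against 220 bp on unplaced ones. Chromosomal control peaks kept in both KO lists also ranked higher, with median percentiles of 83.8 against 33.9 for Flag-actin and 84.5 against 32.4 for BRG1. They were narrower too, at 50 against 280 bp and 50 against 190 bp.

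Much of this difference went with IgG overlap. Outside the IgG list of the arm, 398 of 521 Flag-actin control peaks were without a KO peak, 76.4%, against 91.5% of all such peaks. For BRG1 it was 359 of 417, 86.1%, against 82.5%, so the order of the BRG1 shares turned. In the other direction, 99 of the 674 regions held by both Flag-actin KO lists had no control peak, 14.7% (12.1 to 17.6), near the 16.3% of all such regions. For BRG1, 32 of 560 had none, 5.71% (3.94 to 7.97), against 10.8%. With KO1 alone, 255 of 890 Flag-actin peaks had no control peak, 28.7%, against 51.5% of all peaks of that list, and with KO2 alone 381 of 1090, 35.0%, against 60.5%. For BRG1 it was 64 of 634, 10.1%, against 25.9% with KO1 alone, and 134 of 803, 16.7%, against 32.4% with KO2 alone. The controls had the longer lists in both arms.

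Regions of the 8 lists were then merged where they overlapped. Outside the chromosomes this gave 2116 regions, of which 393 were held by all 8 lists, 18.6% (16.9 to 20.3), against 7.52% of the chromosomal regions. The share was 21.4% for unlocalized contigs (94 regions), 19.6% for alternate contigs (288) and lowest for unplaced contigs, with 11 of 210 regions. Regions in a single list numbered 1087, 51.4%, against 73.1% of regions on all contigs. Of these, 351 were in the Flag-actin control and 231 in the BRG1 control. On the chromosomes those controls had 22862 and 25950 of 93024 such regions.

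To compare levels between lists, the total signal of a region was divided by the list's median over the 9532 chromosomal regions held by all 8 lists. A relative level of 1 is thus the median level of such regions in that library. Single regions were not made equal between lists by this. Over the chromosomal regions the median log2 ratio of KO mean to control was -0.891 for Flag-actin and -0.152 for BRG1. At the 94 unlocalized regions it was -1.45 and -1.18, so for Flag-actin much of the fall was also seen on the chromosomes. At the 288 alternate regions this log2 ratio was -0.729 for Flag-actin, near that of the chromosomes, and 0.0471 for BRG1. The median relative levels of the lists there lay near each other. In the Flag arm they were 0.71, 0.82 and 0.72 in the control, KO1 and KO2 and 0.75 in Flag_Empty IgG. They were 0.70, 1.07 and 0.88 in the BRG1 control, KO1 and KO2 and 0.76 in IgG. At the 94 unlocalized regions the Flag-actin control had a median relative level of 2.17, its KO lists 0.66 and 0.93, and Flag_Empty IgG 0.77. It was 0.88 in the BRG1 control, 0.34 and 0.33 in its KO lists and 0.71 in IgG. The 11 unplaced regions had medians of 1.96, 0.70, 0.90 and 0.73 in the Flag arm and 0.89, 0.60, 0.60 and 0.63 in the BRG1 arm.

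The direction was nearly uniform over the unlocalized regions. The Flag-actin control exceeded both KO lists at 91 of 94 of them, 96.8%, against 60.0% of all regions held by all 8 lists. The BRG1 control did so at 88 of 94, 93.6%, against 49.4%. Of the 11 unplaced regions the Flag-actin control was above both KO lists at 11 and the BRG1 control at 10. The alternate regions did not differ in this way, with 153 of 288 for Flag-actin (53.1%) and 126 of 288 for BRG1 (43.8%). Both BRG1 KO lists were below IgG at 79.8% of the unlocalized regions, against 34.5% of all regions. Both Flag-actin KO lists were below Flag_Empty IgG at 7.45%, against 16.9%. These shares depended on the scaling. With each region taken as a share of its list's summed signal, the BRG1 share was 90.4%, against 55.5% of all regions. The Flag-actin share was then 36.2%, against 44.4%.

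The unlocalized regions are not independent of one another, since 72 of the 94 lie on chr17_KI270729v1_random and chr17_KI270730v1_random. There the median relative levels were 2.73, 0.71, 1.14 and 0.93 in the Flag-actin control, KO1, KO2 and Flag_Empty IgG, and 1.09, 0.38, 0.35 and 0.79 in the BRG1 control, KO1, KO2 and IgG. Without this pair of contigs the Flag-actin control was above both KO lists at 19 of 22 unlocalized regions (86.4%) and the BRG1 control at 16 of 22 (72.7%). Their medians were then 1.05, 0.36, 0.55 and 0.42 in the Flag arm and 0.45, 0.31, 0.29 and 0.37 in the BRG1 arm. Both BRG1 KO lists were below IgG at only 5 of these 22, 22.7%, under the 34.5% of all regions, so that pattern was carried by the pair of contigs. As a share of the list's summed signal it was 59.1%, near the 55.5% of all regions. Unlocalized regions were also wider, with a median of 355 bp against 80 bp on the chromosomes. Among regions over 100 bp the counts were 83 of 86 (96.5%) for Flag-actin, against 55.3% of all regions of that width, and 81 of 86 (94.2%) for BRG1, against 46.4%. With the maximum signal in place of the total, the counts were 90 of 94 (95.7%) for Flag-actin, against 60.0% of all, and 85 of 94 (90.4%) for BRG1, against 46.0%. The bases covered by peaks in these regions moved with the levels, with a median of 250 bp in the Flag-actin control and 190 and 220 bp in its KO lists, and 230 bp in the BRG1 control and 130 and 145 bp in its KO lists. The step of the signal moved with the levels in the Flag arm only: it was 21.5 in the Flag-actin control, above 9.69 and 8.40 in its KO lists, and 4.38 in the BRG1 control, below 11.5 and 9.09. What part library depth had in these levels was not tested. With 1 control library for each antibody, genotype and library cannot be told apart.

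**Figure D4:**
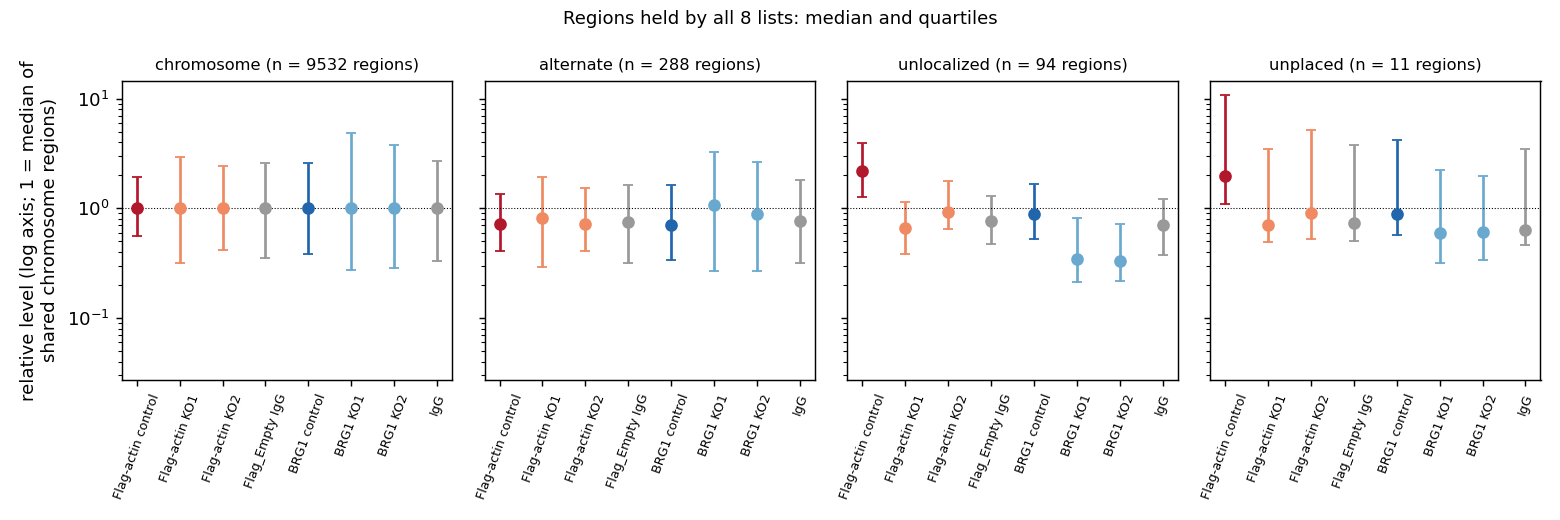
Median (point) and quartiles (bars) of the relative level at regions held by all 8 lists, in 4 panels by contig class, on a log axis; 1 is the list's median over the 9532 chromosomal regions. On unlocalized contigs both controls lie above their KO lists, while on alternate contigs the 8 medians lie between 0.70 and 1.07.

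The strongest merged region outside the chromosomes was the same in 6 of the 8 lists. It spanned chrUn_KI270438v1 56340 to 58079 and had relative levels of 71.0, 24.0, 34.2 and 27.4 in the Flag-actin control, KO1, KO2 and Flag_Empty IgG. In the BRG1 control, KO1, KO2 and IgG it had 29.0, 16.5, 16.4 and 24.4. The IgG levels lay within the range of the antibody libraries, and each control was the highest of its arm. The same order held at chr17_KI270730v1_random 33431 to 33730, with 42.7, 15.6, 22.3 and 18.3 in the Flag arm and 20.9, 8.23, 8.83 and 15.9 in the BRG1 arm.

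Both BRG1 KO lists had another strongest region, chr2_KI270894v1_alt 27341 to 27390. Its relative level was 14.2 in the BRG1 control, 35.7 in KO1, 28.2 in KO2 and 15.1 in IgG. In the Flag arm it was 6.19 in the control, 19.4 in KO1, 15.0 in KO2 and 13.8 in Flag_Empty IgG. Here each control was the lowest of its arm and both BRG1 KO lists were above every other library. By rank the BRG1 lists were nearly level, at percentiles 99.8 (control), 99.9 (KO1) and 99.9 (KO2). The Flag-actin lists stood at 98.3, 99.7 and 99.6. The upper quartile of the relative level at shared chromosomal regions was also higher in the KO lists. It was 2.57, 4.90 and 3.74 in the BRG1 control, KO1 and KO2, and 1.93, 2.95 and 2.44 for Flag-actin. A region of the MHC haplotype chr6_GL000252v2_alt, 3632591 to 3632640, ran the same way, with 2.70, 7.53, 5.33 and 6.70 in the Flag arm and 6.53, 15.4, 11.3 and 6.85 in the BRG1 arm. On whole contigs the direction on chr2_KI270894v1_alt was alike, with 0.0526% of the summed signal in the BRG1 control and 0.0958% and 0.0878% in the KO lists, although the control had 8 peaks there and each KO list 1.

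A pair of X chromosome alternate contigs gave near copies of a value. As whole contigs, chrX_KI270880v1_alt and chrX_KI270913v1_alt held 0.259% and 0.261% of the Flag-actin control signal. Not every pair of alternates was so alike: the MHC haplotypes chr6_GL000251v2_alt and chr6_GL000254v2_alt held 0.0632% and 0.0175% of it. The X chromosome contigs chrX_KI270880v1_alt (216251 to 216330) and chrX_KI270913v1_alt (205391 to 205470) each held a strong region in every list. Their relative levels were 53.0 and 49.3 in the Flag-actin control, 15.8 and 14.5 in KO1, and 22.5 and 21.2 in KO2. In Flag_Empty IgG they were 15.7 and 14.7. In the BRG1 arm they were 16.8 and 15.5 in the control, 12.9 and 12.2 in KO1, 14.7 and 13.1 in KO2, and 15.0 and 13.1 in IgG. A narrow region of chr15_KI270905v1_alt, 1582231 to 1582290, had a like profile, with 45.5, 14.3, 20.1 and 12.8 in the Flag arm and 14.1, 10.3, 11.3 and 12.8 in the BRG1 arm. At these 3 regions the Flag-actin control stood above the other 7 lists, which lay between 10.3 and 22.5.

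A single region was far stronger in the Flag-actin lists than elsewhere. It spanned chr4_KI270925v1_alt 304981 to 305050 and had a relative level of 17.5 in the Flag-actin control, 21.7 in KO1 and 21.6 in KO2. It was not listed in Flag_Empty IgG, in the BRG1 control or in IgG, and stood at 0.295 in BRG1 KO1 and 0.152 in BRG1 KO2. Counted as single peaks before merging, it ranked 1 of those outside the chromosomes in Flag-actin KO1, 3 in KO2 and 13 in the control, at percentiles 99.8, 99.8 and 99.5 of the whole lists. It alone held 1.27%, 3.04% and 2.67% of the signal outside the chromosomes in the Flag-actin control, KO1 and KO2. The peak was narrow, 70, 30 and 50 bp wide in the 3 lists, with a maximum of 3074, 4464 and 5220 steps.

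The lowest Flag-actin level at this region was 59.4 times the highest of the other lists that held it. Of 525 regions outside the chromosomes that were in all 3 Flag-actin lists and in at least 1 other, the next highest ratio was 1.37, and 1 region was over 5. Over all contigs 0.366% of such regions were over 5, and on the chromosomes 45 of 12039 were. The highest ratios there were 188 and 167. Between control and KO the level at this region ranged only from 17.5 to 21.7. A neighbour on the same contig, 118411 to 118450, was in all 8 lists at relative levels from 0.314 (Flag-actin KO1) to 0.860 (Flag-actin control). No sequence of this contig or of the Flag-actin construct was used here, so what lies at the region is not given.

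**Figure D5:**
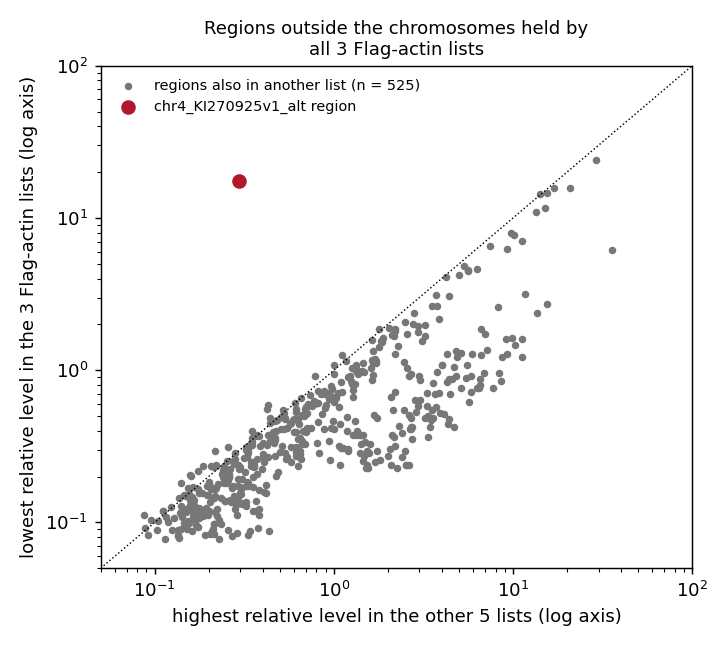
Each point is a region outside the chromosomes held by all 3 Flag-actin lists and at least 1 other list (n = 525), with the highest relative level of the other 5 lists on the x axis and the lowest of the 3 Flag-actin lists on the y axis, both log axes; the dotted line marks equality. The chr4_KI270925v1_alt region lies 59.4 times above the line and the next region 1.37 times.

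Few regions outside the chromosomes were in all 3 lists of an antibody and in neither IgG list. For Flag-actin there were 11, 0.520% of the 2116 regions, against 0.251% of regions on all contigs. Apart from the chr4_KI270925v1_alt region, their relative levels were low, and 3 of them lay on chr1_KI270762v1_alt. The highest of those 3 spanned 219821 to 220740, with 1.30 for the control, 0.0825 for KO1 and 0.163 for KO2. For BRG1 there were 5, 0.236%, against 1.02% on all contigs. They were the ribosomal DNA contig region given above and regions of chr11_KI270826v1_alt, chr12_GL877876v1_alt, chr8_KI270822v1_alt and chrUn_GL000195v1. The highest was chr11_KI270826v1_alt 78071 to 78590, at 0.612 in the BRG1 control, 0.269 in KO1 and 0.138 in KO2. At chrUn_GL000195v1 30581 to 30950 the levels were 0.232, 0.224 and 0.153.

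Regions that passed in one genotype outside both IgG lists were weak in BRG1. Of the 349 regions in the BRG1 control and in neither IgG list, 311 were absent from both BRG1 KO lists, 89.1% (85.4 to 92.2), against 83.3% of such regions on all contigs. The 5 strongest had relative levels from 0.227 to 0.328 and were led by chr8_KI270810v1_alt 101 to 620 and chr16_KI270853v1_alt 758981 to 759480. For Flag-actin it was 381 of 460, 82.8% (79.1 to 86.2), against 93.5%, and the 5 strongest, all on chr1_KI270762v1_alt, had levels from 0.824 to 1.59. Of the regions in both KO lists and in neither IgG list, 13 of 24 were absent from the Flag-actin control, 54.2% (32.8 to 74.4), near the 52.1% of all. For BRG1 it was 8 of 13, 61.5% (31.6 to 86.1), against 27.5%. None of the 5 named for Flag-actin exceeded 0.179 in a Flag-actin KO list. The strongest for BRG1 was the chr4_KI270925v1_alt region.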

How the data were processed

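The data were 8 lists of CUT&RUN peaks from HCT-116 cells, 1 for every library. The build was hg38, per the submitters' processing notes, which name SEACR and MACS2, bedtools 2.30.0, deepTools, BWA and SAMtools, FastQC 0.12.0 and Trim Galore 0.4.5. Their order and settings are not given in the sources used. Each row of the deposited lists gives a position, the total signal of the peak and its maximum signal. How the authors normalised that deposited signal is not given in the sources used, and a list scaled differently would shift every level, so levels were set relative to shared chromosomal regions.

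Contigs were classed by name. Peaks were compared by overlap of at least 1 bp in Python 3.11.15 with numpy 2.4.6, pandas 2.3.3 and scipy 1.17.1, and plots were drawn with matplotlib 3.10.9. On 4000 simulated intervals, overlap and merging gave 0 disagreements with bedtools 2.31.1. Coordinates are 1-based. KO1 and KO2 give mean ± SD (n = 2), and no p-value was computed.

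Contigs named are the 10 with the most peaks, those with the highest signal, and those present in one genotype. Regions named are the strongest of each list, the 10 highest ranked in all 8 lists, and the 5 strongest lost or gained outside IgG. Of these, those that show a pattern are described. The chr4_KI270925v1_alt comparison, the relative level and the contig groups were chosen after values were seen. The contigs and lists were chosen with earlier results of these data known. The RefSeq gene table is of GRCh38.p14 and names no alternate or unplaced contig, so peaks were not assigned to genes.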

Additional observations from a re-analysis of the deposited data

Results flagged for a closer look

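In 3 of 32 measures compared, both KO lists lay on one side of the control for Flag-actin and on the other side for BRG1. The 32 were measures of whole lists, contig classes, contig groups and single contigs. The difference was not tested. For these 3 the quantity is the percentage of a list's summed total signal. On the set of 8 leukocyte receptor complex contigs of chromosome 19 it was 0.0276% in the Flag-actin control, 0.0413% in KO1 and 0.0340% in KO2. There the BRG1 control had 0.0446%, KO1 0.0430% and KO2 0.0419%. On the ribosomal DNA contigs it was 0% in the Flag-actin control, which listed no peak, 0.000365% in KO1 and 0.000799% in KO2. The BRG1 libraries had 0.00155% (control), 0.000424% (KO1) and 0.00137% (KO2), all resting on 1 to 4 peaks. On chr1_KI270762v1_alt the Flag-actin control had 0.122%, KO1 0.0410% and KO2 0.0486%, whereas the BRG1 control had 0.0340%, KO1 0.0404% and KO2 0.0371%.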

How the results depend on the processing

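No paired analysis was possible because each control group has 1 library and the results come from no test. The KO minus control share of peaks (0.264 percentage points for Flag-actin, 0.409 for BRG1) reversed with total signal (-0.712, -0.308), maximum signal (-0.331, -0.144) and shortened lists (-0.0780, -0.234), and moved with bases (0.705, 0.745) and, for BRG1, with peaks over 50 bp (0.743). Control minus IgG (-1.25, -1.33) reversed with maximum signal (0.333, 0.0234) and, for Flag-actin, total signal (0.595). It moved with total signal for BRG1 (-0.0919), bases (-2.70, -4.66), shortened lists (-0.260, -0.496) and peaks over 50 bp (-2.48, -4.34). Control peaks without a KO peak became 27.5% and 19.2% in shortened lists, 76.4% and 86.1% outside the IgG list of the arm, and 37.3% for BRG1 within 200 bp. With 1 KO library left out they were 40.3% to 48.4% and 44.1% to 52.1%, with the higher value from KO1 alone in each arm. Regions gained were 26 and 8 outside the IgG list of the arm alone (13 and 8 outside both IgG lists), and 255 to 381 and 64 to 134 with 1 KO library left out, the lower value coming from KO1 alone. The BRG1 rise in IgG overlap was 32.3 points over 50 bp. Contigs with peaks over 50 bp numbered 101 (Flag-actin KO1), 147 (Flag-actin KO2), 108 (Flag_Empty IgG), 57 (BRG1 KO1), 93 (BRG1 KO2) and 95 (IgG). Alternatives chosen after seeing the data covered regions with the control above both KO lists. The unlocalized share moved to 86.4% (Flag-actin) and 72.7% (BRG1) without the chr17 KI270729 and KI270730 contigs, and the alternate BRG1 share to 37.8% with signal as deposited. Of the alternatives to the main results, 91 kept the value, 34 moved it and 9 reversed it. Kept meant within its interval or spread or, for counts of regions gained and of contigs, within a set fold range. The BRG1 regions gained, 46 in shortened lists against 32, counted as kept. For the shares and IgG overlaps of single lists, 30 alternatives kept the value and 50 moved it. The alternatives that kept the value include those on chrM. No list had a row there, so these could not change.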
